A study of Arabidopsis thaliana with 25 samples.

Results

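AT2G16005 and AT5G23840 are a pair of Arabidopsis genes of the MD-2-related lipid recognition family, taken because both stood higher in the mpk6 mutant than in the wild type in earlier results of these same data. The 2 genes are read by 1 probe set each, out of 13355 genes that could be named through a probe set carrying a single gene. Their level was followed in 12 groups of seedlings. The pair was selected on the log2 difference of mpk6 from WT, which is therefore given as a description without a test, and tests are kept for the hypoxia and organ comparisons.

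MD-2-related proteins are small, usually secreted proteins whose single domain folds around a lipid. In animals the family includes MD-2, which holds bacterial lipopolysaccharide for a receptor of innate immunity, and NPC2, which carries cholesterol in the lysosome. Plants have a handful of such genes, some of them side by side in the genome, and one of them, ML3 (AT5G23820), is the tandem neighbour of the AT5G23830 and AT5G23840 pair. MPK6 is a mitogen-activated protein kinase, an enzyme that relays stress and developmental signals by phosphorylating other proteins.

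The study asked what MPK6 does in root and shoot under oxygen shortage. Transcripts were measured on 25 Affymetrix ATH1 arrays, 13 of roots and 12 of shoots, from 10-day-old Col-0 seedlings grown upright on sucrose plates. The genotypes were mpk6, a T-DNA insertion knockout of MPK6, MPK6ox, in which the constitutive 35S promoter drives MPK6, and wild type (WT). Hypoxia was a sealed chamber filled with 99.998% argon, and normoxia an open box, and root and shoot were separated afterwards. Both treatments lasted 2 h by the protocol, whereas hypoxic samples carry 9 h in their source names, which leaves the duration uncertain. Each combination of genotype, organ and treatment had 2 arrays, except hypoxic MPK6ox roots with 3. How many seedlings went into a sample and how many independent lines were used are not given in the sources used here. The titles number the arrays as biological replicates, and all p-values measure only the spread between these samples.

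All values are log2 expression values per probe set, so a difference of 1 is a doubling of signal. Array medians ran from 6.87 to 7.07, and arrays of one group correlated at 0.982 or higher. The level of MPK6 itself was not analysed here, which leaves the genotypes without that check. The organ labels were checked with marker genes. The 6 measured root markers averaged 8.70 to 11.11 on root arrays and 6.54 to 7.29 on shoot arrays. The 4 measured shoot markers averaged 6.55 to 10.58 on root arrays and 13.22 to 13.40 on shoot arrays. Of 13 measured low-oxygen response genes, all 13 rose with hypoxia in roots averaged over the genotypes, where 9.5% of all probe sets were called higher. The marker and low-oxygen lists were chosen with earlier results of these data known, so these are no independent checks.

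AT2G16005 was a strongly root-weighted transcript that stood about 5-fold higher in mpk6 shoots than in WT shoots. In hypoxic shoots it read 9.76 and 10.13 in mpk6, against 7.51 and 7.88 in WT. In normoxic shoots it read 9.88 and 10.28 in mpk6, against 7.48 and 7.89 in WT. All 4 mpk6 shoot arrays lay above all 4 WT shoot arrays. The fitted difference was 2.25 ± 0.25 (SE) in hypoxic shoots and 2.39 ± 0.25 in normoxic shoots, and 2.32 ± 0.18 over both.

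In roots, where its signal was already high, the gap between the genotypes was small. AT2G16005 read 13.39 and 12.90 in hypoxic mpk6 roots, against 12.61 and 12.41 in hypoxic WT roots. In normoxic roots it read 13.84 and 13.32 in mpk6, against 13.06 and 13.05 in WT. Again no mpk6 array overlapped the WT arrays of its treatment. The difference was 0.58 ± 0.18 over both treatments, which is 1.49-fold.

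AT5G23840 was also a root transcript, with an excess in mpk6 that was even across root arrays and uneven across shoot arrays. It read 11.66 and 11.51 in hypoxic mpk6 roots, against 10.47 and 10.44 in hypoxic WT roots. In normoxic roots it read 11.81 and 11.96 in mpk6, against 10.81 and 10.79 in WT. The replicates lay close together and the groups did not overlap. The difference was 1.13 ± 0.36 in hypoxia and 1.08 ± 0.36 in normoxia, or 1.11 ± 0.25 over both, a 2.16-fold higher signal.

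In shoots AT5G23840 was dim and its mpk6 arrays were uneven. It read 6.04 and 6.77 in hypoxic mpk6 shoots, against 5.77 and 5.92 in hypoxic WT shoots. In normoxic shoots it read 5.96 and 7.60 in mpk6, against 5.80 and 5.66 in WT. Every mpk6 shoot array was above every WT shoot array, but 1 array, mpk6 normoxia replicate 2, carried most of the gap. Between arrays of the same number the normoxic difference was 0.16 for replicate 1 and 1.94 for replicate 2. The fitted difference was 0.56 ± 0.36 in hypoxic and 1.05 ± 0.36 in normoxic shoots, and 0.80 ± 0.25 over both. Without mpk6 shoot normoxia replicate 2 the value over both was 0.39, and without replicate 1 of the same group it was 1.22. The root value lay between 1.07 and 1.15 with any 1 array left out, and the organs were not tested against each other.

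**Figure D1:**
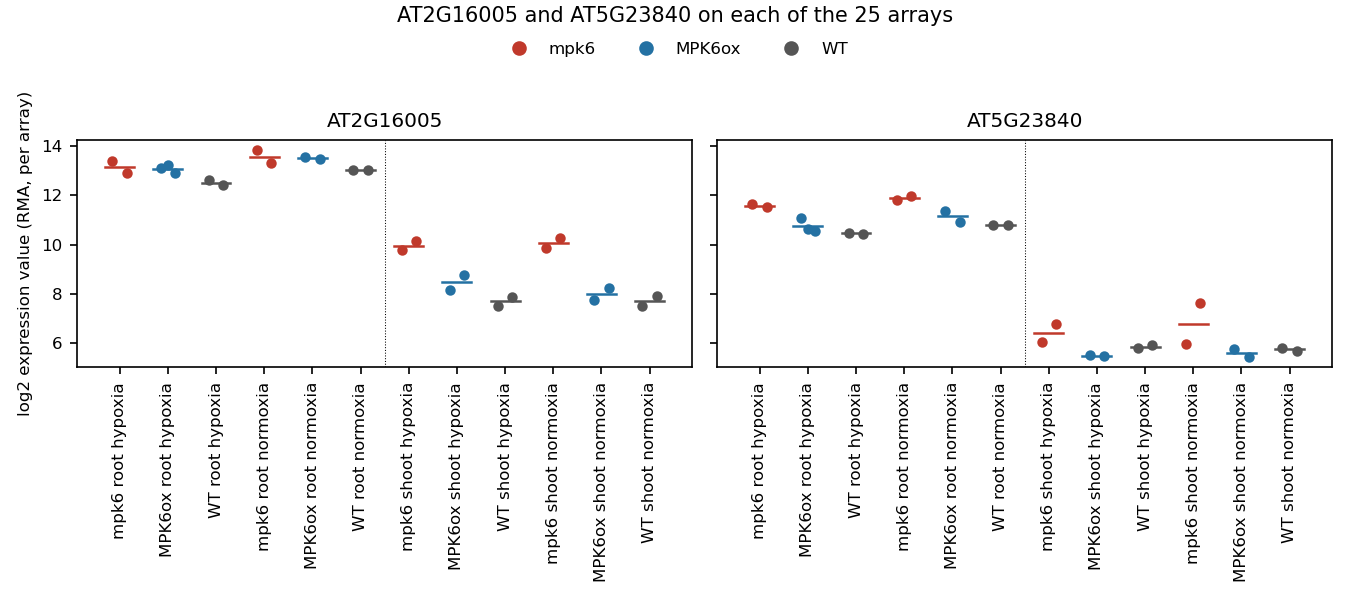
Log2 expression value (RMA) of AT2G16005 and AT5G23840 on each array, as points, with the group mean as a line, in hypoxic and normoxic roots (left of the dotted line) and shoots (right) of mpk6, MPK6ox and WT. Root arrays lie above all shoot arrays in both panels, and AT2G16005 separates mpk6 shoots, between 9.76 and 10.28, from WT shoots, between 7.48 and 7.89.

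Over both organs and treatments, the mpk6 excess averaged 1.45 ± 0.13 for AT2G16005 and 0.96 ± 0.18 for AT5G23840, or 2.73-fold and 1.94-fold. In that comparison limma called 0.369% of the 22746 probe sets, a number given only as background because the same comparison chose the genes. With single arrays left out, the average ranged from 1.38 to 1.51 for AT2G16005 and from 0.75 to 1.16 for AT5G23840.

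In MPK6ox, AT2G16005 also stood above WT, on average by 0.53 ± 0.12, a 1.44-fold difference, where limma called 2.29% of all probe sets. Its MPK6ox arrays read 13.13, 13.26 and 12.91 in hypoxic roots and 13.57 and 13.47 in normoxic roots, above the WT root arrays of the same treatment. In hypoxic shoots they read 8.16 and 8.78, also above WT, and in normoxic shoots 7.73 and 8.24, overlapping WT. All MPK6ox shoot arrays stayed below all mpk6 shoot arrays, whose lowest value was 9.76. In roots the MPK6ox and mpk6 arrays overlapped in hypoxia and in normoxia.

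For AT5G23840 the MPK6ox difference from WT was positive in roots, 0.33 ± 0.24, and negative in shoots, -0.26 ± 0.25. Over both organs these averaged 0.03 ± 0.17 (95% interval -0.33 to 0.40). It read 11.10, 10.65 and 10.56 in hypoxic MPK6ox roots and 11.37 and 10.91 in normoxic ones, all above the WT root arrays of the same treatment. The shoot values were 5.49 and 5.46 in hypoxia and 5.73 and 5.42 in normoxia, among or below the WT values. Both line comparisons use the same WT arrays, and the WT arrays also entered the choice of the genes, so these differences are descriptions too.

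**Figure D2:**
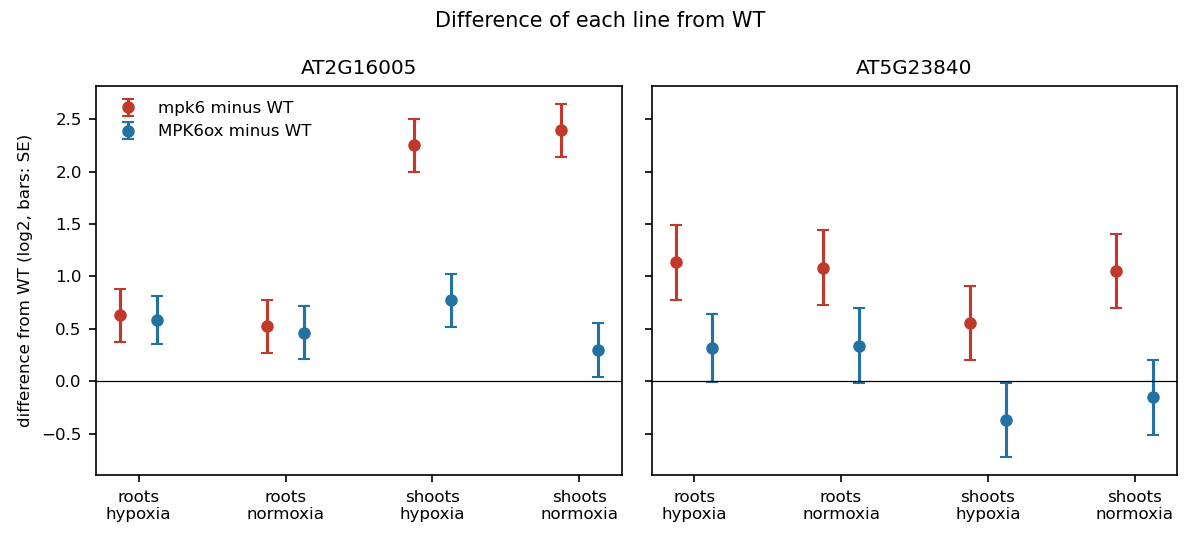
Difference of mpk6 (red) and MPK6ox (blue) from WT in log2 units, with SE bars, in hypoxic and normoxic roots and shoots. For AT2G16005 the mpk6 differences in shoots, 2.25 and 2.39, stand well above those in roots, 0.63 and 0.52, while for AT5G23840 they run from 0.56 to 1.13.

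Ordered by group mean, AT2G16005 was highest in normoxic mpk6 roots (13.58 ± 0.37, SD, n = 2) and normoxic MPK6ox roots (13.52 ± 0.07). These were followed by hypoxic mpk6 roots (13.14 ± 0.34), hypoxic MPK6ox roots (13.10 ± 0.18, n = 3), normoxic WT roots (13.05 ± 0.00) and hypoxic WT roots (12.51 ± 0.14). The shoot groups came next, with mpk6 in normoxia (10.08 ± 0.29) and hypoxia (9.95 ± 0.26) clear of all others. MPK6ox shoots in hypoxia (8.47 ± 0.44) and normoxia (7.98 ± 0.36) and WT shoots in hypoxia (7.70 ± 0.26) and normoxia (7.69 ± 0.29) closed the order. Of the 11 pairs of neighbours in this order, 7 overlapped in their arrays. The breaks fell below normoxic MPK6ox roots, on both sides of hypoxic WT roots, and below hypoxic mpk6 shoots.

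For AT5G23840 the order began with normoxic mpk6 roots (11.89 ± 0.11) and hypoxic mpk6 roots (11.59 ± 0.10), followed by normoxic MPK6ox roots (11.14 ± 0.33). Normoxic WT roots (10.80 ± 0.01), hypoxic MPK6ox roots (10.77 ± 0.29) and hypoxic WT roots (10.45 ± 0.02) completed the root groups. Among shoots, normoxic mpk6 (6.78 ± 1.16) and hypoxic mpk6 (6.40 ± 0.52) led. Hypoxic WT (5.85 ± 0.11), normoxic WT (5.73 ± 0.09), normoxic MPK6ox (5.58 ± 0.22) and hypoxic MPK6ox (5.48 ± 0.02) came last. Here 5 of the 11 neighbouring pairs overlapped, 4 of them among the shoot groups. The SD of normoxic mpk6 shoots was larger than that of any other group of this gene.

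Other root transcripts were measured in mpk6 shoots beside these values. The 6 root markers averaged 6.95 and 7.29 on the normoxic mpk6 shoot arrays, against 6.68 and 6.63 on the WT ones. In hypoxic shoots they averaged 6.57 and 6.74 in mpk6, against 6.54 and 6.65 in WT, so there the ranges overlapped. Limma called 0 of the 6 in mpk6 shoots over both treatments, 1 having an unadjusted p under 0.05, where 0.0264% of all probe sets were called. Their differences from WT in mpk6 shoots ran from -0.01 to 0.58, with a median of 0.26. PYK10, a beta-glucosidase, had the lowest, reaching 13.31 to 13.92 in mpk6 shoots and 13.48 to 13.75 in WT shoots. AT4G26010 had the highest, with means of 5.47 in mpk6 shoots and 4.89 in WT shoots.

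A broader set, chosen after the values were seen, held the 139 other probe sets that stood more than 4 log2 units higher in MPK6ox roots than in MPK6ox shoots. In mpk6 shoots 132 of them were above WT, with a median of 0.48. The median was 0.30 in hypoxic and 0.71 in normoxic mpk6 shoots. It was 0.12 in MPK6ox shoots over both treatments, but low values there entered the choice of the set, so the lines are not compared. Among all probe sets the median was 0.01 in mpk6 shoots. AT2G16005, at 2.32, exceeded all but 1 of the 139, and did so in each treatment. AT5G23840, at 0.80, was exceeded by 32 of them, by 38 in hypoxic and 37 in normoxic shoots. The shoot excess of AT5G23840 lay within the spread of root-enriched transcripts, and that of AT2G16005 at its upper end. The pair was chosen for its excess in mpk6 and the 139 were not, so these places are descriptions. What part root RNA had in either was not tested. In roots, the median of the set was 0.16 between mpk6 and WT. Of the 6 root markers, only AT2G39040 was called higher in mpk6 roots (0.75 ± 0.10, limma adjusted p = 0.00164), where 0.585% of all probe sets were called. The median of the 6 there was 0.25.

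**Figure D3:**
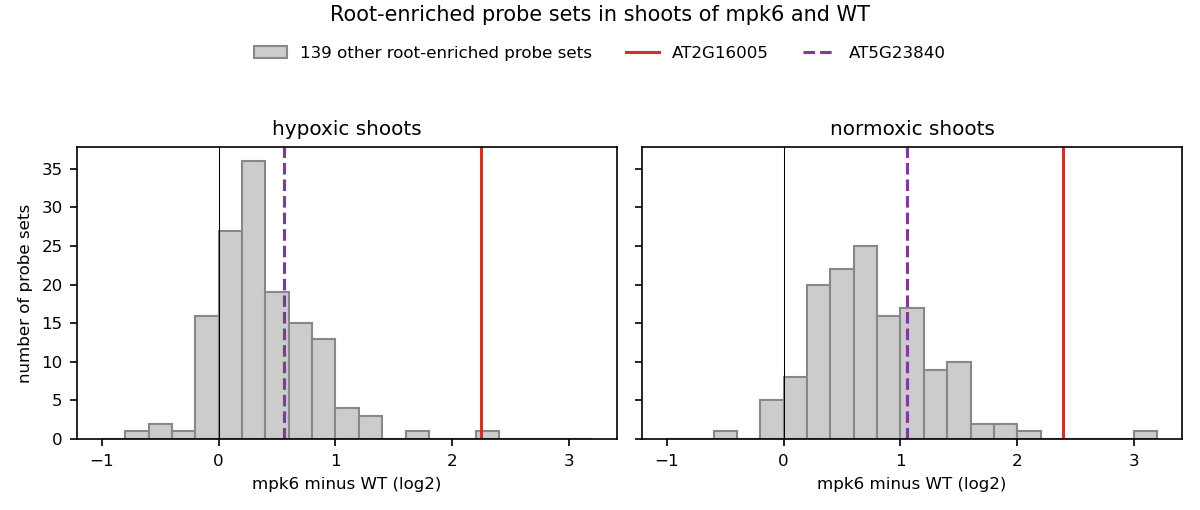
Histograms of mpk6 minus WT (log2) in hypoxic and normoxic shoots for 139 other root-enriched probe sets, with AT2G16005 (solid line) and AT5G23840 (dashed line). Most bars lie right of 0, with medians of 0.30 and 0.71, AT5G23840 falls among them at 0.56 and 1.05, and AT2G16005 stands near the right end at 2.25 and 2.39.

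Both genes were far more abundant in roots than in shoots in every genotype. For AT2G16005 the root minus shoot difference, averaged over treatments, was 5.08 ± 0.17 in MPK6ox (limma adjusted p = 5.74e-13) and 5.09 ± 0.18 in WT (adjusted p = 1.04e-12), about 34-fold each. In mpk6 it was 3.35 ± 0.18, or 10.2-fold (adjusted p = 8.59e-11). The mpk6 value reflects the higher shoot level that chose the gene, so the genotypes were not tested against each other. In all 3 genotypes the lowest root array, at 12.41 over all, was above the highest shoot array.

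For AT5G23840 the root minus shoot difference was 5.15 ± 0.25 in mpk6 (limma adjusted p = 3.08e-11), 5.43 ± 0.24 in MPK6ox (adjusted p = 7.67e-12) and 4.84 ± 0.25 in WT (adjusted p = 5.44e-11). All its shoot values except 7.60, in normoxic mpk6, lay below the array medians, and none was set against background. These differences may therefore be lower bounds, and no order between genotypes is read from them. Its lowest root array was 10.44 and its highest shoot array 7.60. Organ differences were common on these arrays: limma called 26.6% of probe sets higher in roots in mpk6, 27.6% in MPK6ox and 25.9% in WT. Both genes passed in each genotype, so the call itself does not set them apart, while a difference over 4 log2 units in MPK6ox was shared with only 139 other probe sets. Fewer cells of a type and less RNA per cell cannot be told apart in such bulk samples.

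Hypoxia effects were small beside the organ differences. In roots averaged over the genotypes, AT2G16005 fell to 0.72 of its normoxic signal (-0.46 ± 0.14, limma adjusted p = 0.0243), 1 of the 2 genes called, where 14.8% of all probe sets were called lower. The change was -0.44 ± 0.25 in mpk6, -0.42 ± 0.23 in MPK6ox and -0.54 ± 0.25 in WT. Hypoxic and normoxic root arrays did not overlap in MPK6ox and WT but did in mpk6. Of all calls in this comparison, 39.1% were upward with the values as deposited and 56.2% with arrays centred on their medians, where AT2G16005 changed by -0.40 (adjusted p = 0.0441).

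The call depended on single arrays. Limma's adjusted p was 0.0685 without WT root hypoxia replicate 2, 0.0872 without mpk6 root normoxia replicate 1, 0.073 without mpk6 root hypoxia replicate 2 and 0.0597 without MPK6ox root normoxia replicate 1. In MPK6ox and WT the same hypoxic root arrays also read higher for shoot markers than the normoxic ones, while in mpk6 the arrays overlapped. The mean of the 4 shoot markers was 8.57 and 9.41 in hypoxic against 8.63 and 7.63 in normoxic mpk6 roots. It was 8.76, 10.58 and 9.42 against 6.55 and 7.07 in MPK6ox roots, and 9.03 and 9.95 against 7.41 and 7.54 in WT roots. All 6 root markers were called lower with hypoxia in roots averaged over the genotypes, where 14.8% of all probe sets were called lower. The part of these marker shifts in the fall of AT2G16005 was not tested.

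AT5G23840 did not pass in roots over the genotypes, with a change of -0.34 ± 0.20 (95% interval -0.77 to 0.08, limma adjusted p = 0.237). The 3 genotypes gave -0.30 in mpk6, -0.38 in MPK6ox and -0.35 in WT, each ± 0.32 to 0.36. With roots fitted apart from shoots, the same change had an SE of 0.11 and passed (adjusted p = 0.0485).

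In shoots neither gene passed. AT2G16005 changed by 0.12 ± 0.15 over the genotypes (95% interval -0.19 to 0.43, limma adjusted p = 0.783) and AT5G23840 by -0.12 ± 0.21 (-0.56 to 0.31, adjusted p = 0.863), where 8.42% of probe sets were called. Over the 6 single comparisons of hypoxia with normoxia, limma called 0 of the 2 genes in each, and only AT2G16005 in WT roots had an unadjusted p under 0.05. The share of probe sets called was 10% in mpk6 roots, 9.76% in MPK6ox roots and 6.5% in WT roots, and 1.31%, 1.77% and 1.38% in the shoots of the same genotypes.

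The largest shoot value was that of AT2G16005 in MPK6ox, 0.49 ± 0.25 (95% interval -0.05 to 1.02). The hypoxia effect in MPK6ox minus that in WT was 0.12 ± 0.34 in roots and 0.47 ± 0.36 in shoots for AT2G16005, and -0.02 ± 0.48 and -0.22 ± 0.50 for AT5G23840. Limma called 0 probe sets (0%) in either of these comparisons, with 515 in roots and 244 in shoots at an unadjusted p under 0.05. The root minus shoot difference of the hypoxia effect, a comparison added after the data were seen, was -0.59 ± 0.20 for AT2G16005 (adjusted p = 0.103) and -0.22 ± 0.29 for AT5G23840 (adjusted p = 0.743), where 7.54% of probe sets were called.

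**Figure D4:**
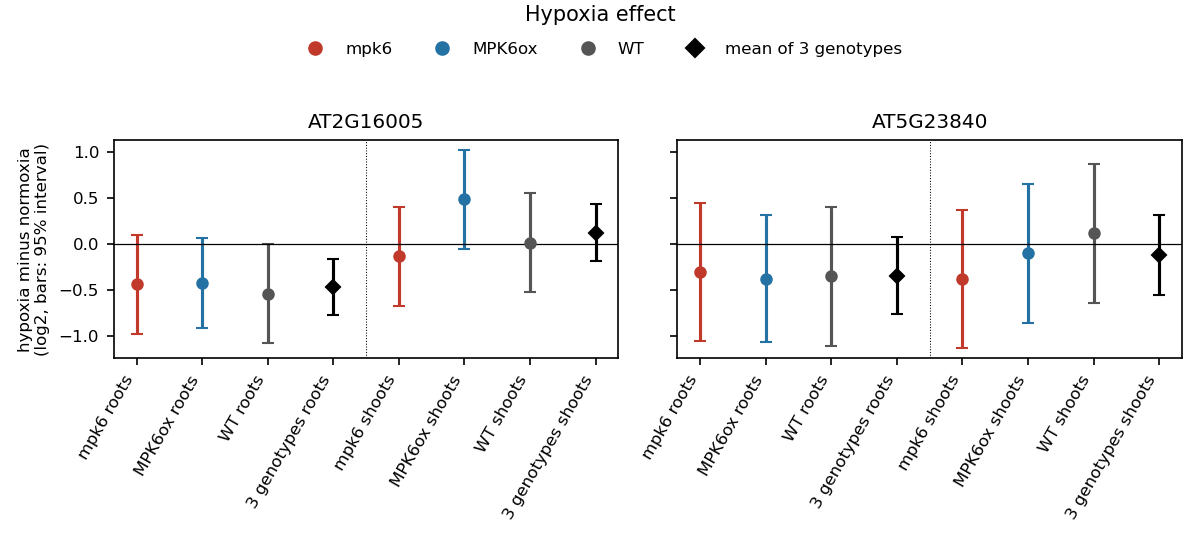
Hypoxia minus normoxia in log2 units with 95% intervals for roots (left of the dotted line) and shoots (right) of mpk6, MPK6ox and WT and for the mean of the 3 genotypes. For AT2G16005 the root mean of -0.46 lies below 0 with its interval, and the interval of the shoot mean of 0.12 includes 0. Every interval of AT5G23840 includes 0.

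Of 8 family genes listed, 6 were measured, and AT2G16001 and ML3 were not analysed here. AT5G23830, the gene next to AT5G23840 on chromosome 5, followed the same layout. It read 8.42 and 9.16 in hypoxic mpk6 shoots, against 7.24 and 8.55 in WT, and 8.87 and 9.92 in normoxic mpk6 shoots, against 7.48 and 8.35 in WT. The normoxic groups did not overlap and the hypoxic groups did. The difference over both treatments was 1.19 ± 0.28 in shoots (limma adjusted p = 0.287) and 0.36 ± 0.28 in roots (adjusted p = 0.761).

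AT5G23830 did not pass over organs and treatments either, its value there being 0.77 ± 0.20 (adjusted p = 0.136). Without WT shoot hypoxia replicate 2 it was 0.94 (adjusted p = 0.0459). It was 12.4-fold higher in roots than in shoots in mpk6 (3.63 ± 0.28, adjusted p = 7.18e-09), 22.5-fold in MPK6ox and 22.1-fold in WT (4.47 ± 0.28, adjusted p = 5.09e-10). In roots it changed by -0.42 ± 0.22 with hypoxia (adjusted p = 0.195), and with roots fitted alone this passed (adjusted p = 0.0164). Whether the probe sets of the neighbouring AT5G23830 and AT5G23840 pick up each other's transcripts was not tested.

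The remaining 3 family genes were flat beside these. AT3G44100 ranged from 10.02 to 11.04 on root arrays and from 9.48 to 10.12 on shoot arrays. It was 1.62-fold higher in roots than in shoots in MPK6ox (0.70 ± 0.19, limma adjusted p = 0.00532). The difference was 0.58 in mpk6 (adjusted p = 0.0233) and 0.60 in WT (adjusted p = 0.0185), and each of these calls was lost without any of 4 single arrays. In mpk6 these were root normoxia replicate 2, shoot normoxia replicate 1, root hypoxia replicate 2 and shoot hypoxia replicate 1, and in WT root normoxia replicate 2, shoot normoxia replicate 1, root hypoxia replicate 1 and shoot hypoxia replicate 1.

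AT3G11780 ranged from 9.22 to 10.30 in roots and 9.70 to 10.20 in shoots, and AT5G06480 from 4.63 to 5.35 and 4.78 to 5.20. Neither passed any organ comparison, and the root minus shoot differences lay between -0.22 and 0.12. Between mpk6 and WT the 3 genes differed by -0.18 ± 0.14, 0.03 ± 0.11 and -0.05 ± 0.10 over organs and treatments, and limma called none of them (lowest adjusted p = 0.838). All values of AT5G06480 lay below the array medians and were not set against background, so its lack of differences says little.

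**Figure D5:**
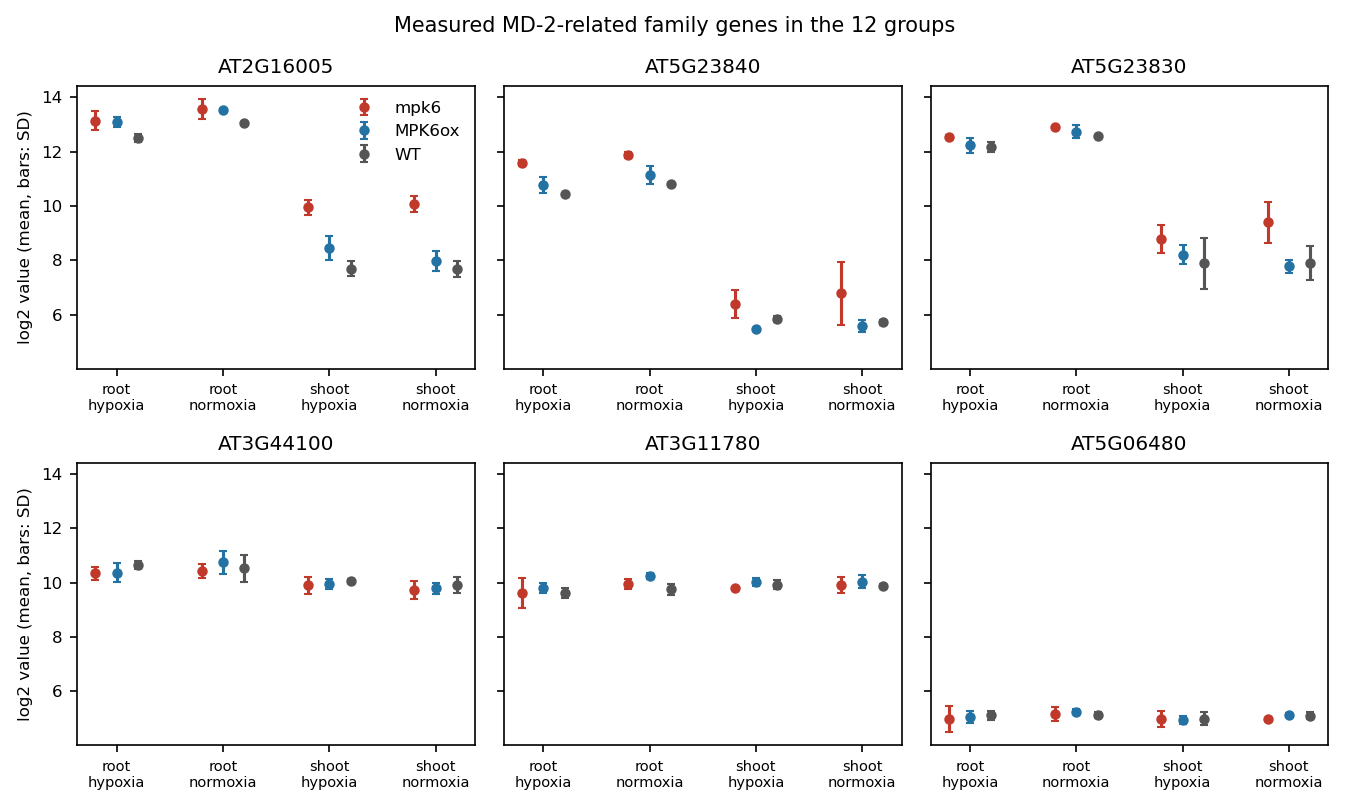
Mean log2 value with SD for the 6 measured MD-2-related family genes in hypoxic and normoxic roots and shoots of mpk6, MPK6ox and WT. AT2G16005, AT5G23840 and AT5G23830 drop by more than 3 log2 units between root and shoot, and AT3G44100, AT3G11780 and AT5G06480 keep to a band of at most 1.56 over all 25 arrays.

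Within one organ the chosen pair and AT5G23830 varied together. Across the 13 root arrays AT2G16005 and AT5G23840 correlated at 0.68, and across the 12 shoot arrays at 0.71. AT5G23830 correlated with AT5G23840 at 0.82 in roots and 0.79 in shoots, and with AT2G16005 at 0.72 and 0.86. These correlations include the mpk6 groups that chose the pair and are descriptions over arrays of shared genotypes. Replicate numbers also shifted these genes: each read higher in replicate 2 than in replicate 1 in 1 of 6 root groups. In shoots AT2G16005 and AT5G23830 did so in 6 of 6 groups and AT5G23840 in 3 of 6. The part of this shift in the correlations was not tested. The same 3 genes correlated with AT3G11780 between -0.11 and 0.28 within organs.

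AT5G23830 was also the one measured chromosomal neighbour with a difference in mpk6 near that of the pair. AT2G16005 lies on chromosome 2 and AT5G23840 on chromosome 5. Among the 10 annotated genes on either side, 7 of 20 were measured around AT2G16005 and 8 of 20 around AT5G23840. Limma called 0 of the 7 and 0 of the 8 between mpk6 and WT over organs and treatments, 1 in each having an unadjusted p under 0.05. With 0.369% of all probe sets called there, 0 calls among so few genes say nothing particular about them. Around AT2G16005 the changes ran from -0.07 to 0.18 with a median of 0.03. Around AT5G23840 they ran from -0.15 to 0.77 with a median of 0.00, the largest being that of AT5G23830.

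The named genes whose 12 group means ran most like AT2G16005 were AT5G23830 (Pearson r = 0.990), MT1C (0.988), a metallothionein gene, AT2G21045 (0.986), AT1G66800 (0.985) and AT3G45710 (0.984). For AT5G23840 they were AT3G22570 (0.997), AT1G66800 (0.997), GSTU26 (0.996), a glutathione S-transferase gene, AT4G02930 (0.996) and AT1G18940 (0.995). AT1G66800 stood in both lists. Across 12 groups these values mainly record the shared root and shoot contrast, so they were also taken within an organ. For AT3G22570 and AT5G23840 r was 0.953 over the 13 root arrays and 0.808 over the 12 shoot arrays. For MT1C and AT2G16005 it was 0.424 and 0.778.

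Several of these genes had a similar step in mpk6, given without a test because likeness to the pair selects for it. AT1G66800 was 0.85 higher in mpk6 roots and 1.04 higher in mpk6 shoots than in WT. AT3G22570 was 0.94 higher in mpk6 roots and 0.65 in mpk6 shoots, and GSTU26 1.05 and 0.47. AT2G21045 was 0.17 higher in mpk6 roots and 1.24 in mpk6 shoots, and AT3G45710 0.40 and 1.14. MT1C was 0.14 higher in mpk6 roots and 0.59 in mpk6 shoots, AT1G18940 0.47 and 0.23, and AT4G02930 0.21 and 0.15. High likeness of group means thus did not always come with such a step. None of the 9 genes reached the 2.32 of AT2G16005 in shoots.

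A further list held genes tied to the ER body, an organelle of Arabidopsis roots and seedlings filled with the beta-glucosidase PYK10. Of 16 listed, 6 were measured. Limma called 0 of the 6 between mpk6 and WT over organs and treatments, where 0.369% of all probe sets were called, with a median of -0.01 and 1 at an unadjusted p under 0.05. That gene, JAL23, differed by 0.38 ± 0.14 (adjusted p = 0.469), and by 0.86 ± 0.20 in shoots alone (adjusted p = 0.287). In WT, 4 of the 6 were higher in roots than in shoots, where 25.9% of all probe sets were, led by NAI2 (1.31) and the transcription factor gene NAI1 (1.30). With hypoxia in roots over the genotypes 3 of the 6 fell, where 14.8% of all probe sets did, NAI1 by 0.89 (adjusted p = 0.000101), PYK10 by 0.32 and the jacalin-related lectin gene JAL33 by 0.32. Of the synaptotagmins, calcium-binding proteins of membrane contact sites, only AT3G18370 was measured. It differed by -0.05 between mpk6 and WT and changed by -0.69 in hypoxic roots, which passed.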

How the data were processed

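The deposited table holds 1 log2 expression value per probe set and array, made by the authors with RMA, per the submitters' processing notes. Version and joint normalization of all arrays are not given in the sources used here. Biotin labelling took 2 cycles, per the labels' protocols. Values were used as deposited. Of 22810 probe sets, 64 control (AFFX) sets were left out, 22746 were tested, and 13513 carried a single gene by the array's probe table. A further 503 carried several genes and 8730 were unnamed here. Names and gene order came from the RefSeq table of TAIR10.1. Family membership beyond the chosen pair comes from general annotation knowledge.

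One model of 12 group means was fitted in limma 3.58.1 (R 4.3.3), its variances moderated by eBayes with 3.41 prior beside 13 residual degrees of freedom. Benjamini-Hochberg adjustment ran over all tested probe sets, with calls under 0.05. The procedure was also run on simulated data with independent noise and no replicate batch, so that run says nothing about shared shifts between these arrays. Errors are standard errors of fitted changes or SDs of groups. Array number limits the precision. Figures used Python 3.11.15 and matplotlib 3.10.9.

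Named genes were the pair, the measured family, called neighbours among the 10 genes on each side, up to 4 genes per list, and the 5 probe sets most like each gene by Pearson r of group means. The members and lists were chosen with earlier results of these data known. A listed gene counts as measured where the probe table names it for a probe set with a single gene. Measured and listed genes were 6 of 8 for the family, 1 of 6 for synaptotagmins, 6 of 16 for the ER body, 13 of 20 for low oxygen, 6 of 8 for root and 4 of 11 for shoot markers. Of 17 sterol synthesis and 10 root gravitropism genes 0 could be named in this way, so these lists were not used here. Alternatives were quantile normalization, median centring, the dimmest 25% left out, organs fitted separately, a replicate block, trend and robust moderation, array weights and each array left out. No protein or promoter sequence was used here.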

Additional observations from a re-analysis of the deposited data

How the results depend on the processing

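The root excess of both genes passed under every alternative run (separate organs allow no such comparison, and a group left with 1 array is taken to vary like the others). The fall of AT2G16005 in roots passed under the alternatives that keep all arrays and ranged from -0.55 to -0.38 with 1 array left out (limma adjusted p from 0.0143 to 0.0872). The other calls of the pair that changed are those of AT5G23840 in roots with organs fitted separately (-0.34, now passing), of AT5G23840 in mpk6 shoots (from -1.20, passing without mpk6 shoot normoxia replicate 1, to 0.44) and of the root minus shoot hypoxia effect of AT2G16005 (from -0.69, passing without MPK6ox shoot hypoxia replicate 1, to -0.48). With arrays left out, uncalled values near 0 changed sign. For AT2G16005 these were the hypoxia effects in WT shoots (-0.19 to 0.22) and mpk6 shoots (-0.33 to 0.070). For AT5G23840 they were the hypoxia effects in MPK6ox shoots (-0.26 to 0.057) and in shoots over the genotypes (-0.40 to 0.15). Its hypoxia effect in MPK6ox roots minus that in WT roots also changed sign (-0.25 to 0.21, and 0.081 with the replicate block). So did the root minus shoot difference of its hypoxia effect (-0.50 to 0.053). Its MPK6ox minus WT difference over organs and treatments did as well (-0.024 to 0.091, and -0.00106 after quantile normalization). The causes were not tested.

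Counts of called probe sets depended more on the fit. With arrays left out, they ran from 612 to 1632 (1479 with all arrays) for hypoxia in WT roots, 1046 to 3277 (2278) in mpk6 roots, 1117 to 2321 (2221) in MPK6ox roots, 127 to 326 (313) in WT shoots, 146 to 325 (298) in mpk6 shoots, 156 to 432 (403) in MPK6ox shoots, 0 to 1 (0) for the shoot difference between MPK6ox and WT, and 37 to 131 (84) for mpk6 minus WT. The replicate block gave 2579 in WT roots, 3686 in mpk6 roots, 617 in WT shoots, 620 in mpk6 shoots, 888 in MPK6ox shoots, 3076 (against 1916) in shoots over the genotypes, 205 for mpk6 minus WT and 792 (against 522) for MPK6ox minus WT. Array weights gave 1361 in mpk6 roots and 526 in WT shoots, and separate organs 852 in WT roots. Median centring moved the median of all probe sets by up to 0.12, in hypoxia in mpk6 roots.

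The replicate block changed no call of the pair, but it fits 1 shift per replicate number for roots and shoots together. It cannot take out shifts that differ between organs. AT2G16005 read higher in replicate 2 in only 1 of 6 root groups, unlike in shoots. Deviations of same-numbered arrays correlated over 0.1 in 55 of 66 pairs of groups (median 0.28), short of every pair, so the unblocked fit was kept. All 24 arrays numbered 1 or 2 correlated best with an array of their own number, a hint from the data, not the design, that numbers share a batch. The shares of called probe sets in the text come from the unblocked fit. AT2G16005 read higher in replicate 2 than in replicate 1 in 6 of 6 shoot groups, and its mpk6 minus WT difference in shoots was 2.25 in hypoxia and 2.39 or 2.40 in normoxia within each number. Signal over background was not assessed.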
